A study of Mus musculus with 4 samples.

Results

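Gene expression of 155 mouse genes of the detoxification enzyme families was followed through a bone marrow culture that forms osteoclasts, the multinucleated cells that resorb bone. A gene was a member when a probe set with a single gene symbol in the platform annotation carried a name beginning with Gsta, Gstm, Gsto, Gstp, Gstt (glutathione S-transferases), Akr1, Akr7 (aldo-keto reductases), Aldh (aldehyde dehydrogenases), Ugt1, Ugt2 (UDP-glucuronosyltransferases), Sult (sulfotransferases), Ces with a digit (carboxylesterases) or Cyp with a digit (cytochromes P450). The symbols Cyp24a1, Cyp27a1, Cyp27b1, Cyp51 and Aldh18a1 were left out. This gave 214 probe sets for the 155 genes, out of 34945 such probe sets for 18193 named genes. A further 13 probe sets carried several symbols with at least one from these families and were not used, among them probe sets for the Ugt1a genes.

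All cells came from the bone marrow of female C57Bl/6J mice aged 12 weeks, and 1 Affymetrix array was hybridised at each of 4 times. The day 1 array held marrow on the day it was taken, with no culture. For day 4, marrow was cultured for 3 days with vitamin D3 at 10 nM and 10% serum. For days 5 and 7, the medium after those 3 days also held M-CSF, on which macrophages depend, at 20 ng/ml and RANKL, the main osteoclast-inducing cytokine, at 40 ng/ml. The labels conflict with this over the length of cytokine exposure. They give these arrays 4 and 6 days of differentiation with all 3 agents, which was taken here to count from the start of culture. Every array after day 4 had both cytokines, so they and the passage of time cannot be told apart. Day 4 differed from day 1 in culture, vitamin D3, serum and time together, so these cannot be told apart either. The labels call all 4 samples primary osteoclasts, while the day 1 array held fresh marrow, in which 4 of 10 osteoclast genes (Calcr, Dcstamp, Ocstamp and Oscar) were at the floor described below. The 6 others (Acp5, Ctsk, Mmp9, Nfatc1, Itgb3 and Atp6v0d2) were above it on day 1, with signals from 397 to 4173. The labels do not say how many mice were used or whether marrow was pooled.

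Detoxification enzymes make reactive or fat-soluble compounds easier to excrete. Cytochromes P450, aldehyde dehydrogenases, aldo-keto reductases and carboxylesterases oxidise, reduce or split a compound, and glutathione S-transferases, sulfotransferases and UDP-glucuronosyltransferases then attach glutathione, sulfate or a sugar acid to it. Many members also act on the body's own steroids, retinoids, fatty acids and products of lipid oxidation, and a large share of the P450, carboxylesterase and UDP-glucuronosyltransferase genes are best known from liver.

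The values are deposited linear signals, 1 per probe set and array. A floor was placed at 32.4, the median signal over the 4 arrays without controls, and lower signals were raised to it. Each gene was read from the probe set whose log2 signal, averaged over the arrays, was highest. A gene was counted as higher or lower when 2 arrays differed by at least 2-fold. Where it was above the floor on only 1 of them the fold is a lower bound, written "at least". With 1 array a day there was no replicate and no test, so each value describes these 4 arrays and the number of arrays limits its precision. For scale, log2 differences of 18 spiked controls spread with an SD of 0.17 for day 4 over day 1 and 0.07 for day 7 over day 5. Between probe sets of the same gene the pooled SD was 0.41 for the first of these and 0.26 for the second. Signals of different genes were not compared with each other, since probes differ in how well they bind.

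Of the 155 member genes, 63 (40.6%) exceeded the floor on 1 or more arrays, against 68.4% of all named genes, and 33 were above it on all 4. The families differed widely in this respect. Of the glutathione S-transferases 15 of 18 were above the floor on some array, of the aldehyde dehydrogenases 15 of 19 and of the aldo-keto reductases 9 of 15. Of the cytochromes P450 it was 18 of 69, of the carboxylesterases 4 of 13, of the sulfotransferases 2 of 13 and of the UDP-glucuronosyltransferases of the Ugt2 group 0 of 8. None of the 5 Cyp3 genes and 6 of the 35 Cyp2 genes were above it. In all, 92 members stayed at the floor throughout. A list of 8 hepatocyte genes gave a like picture. Of its 7 genes on the array only Ambp was above the floor, and the defining genes Alb, Apoa1 and Ttr were at the floor on every array.

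**Figure D1:**
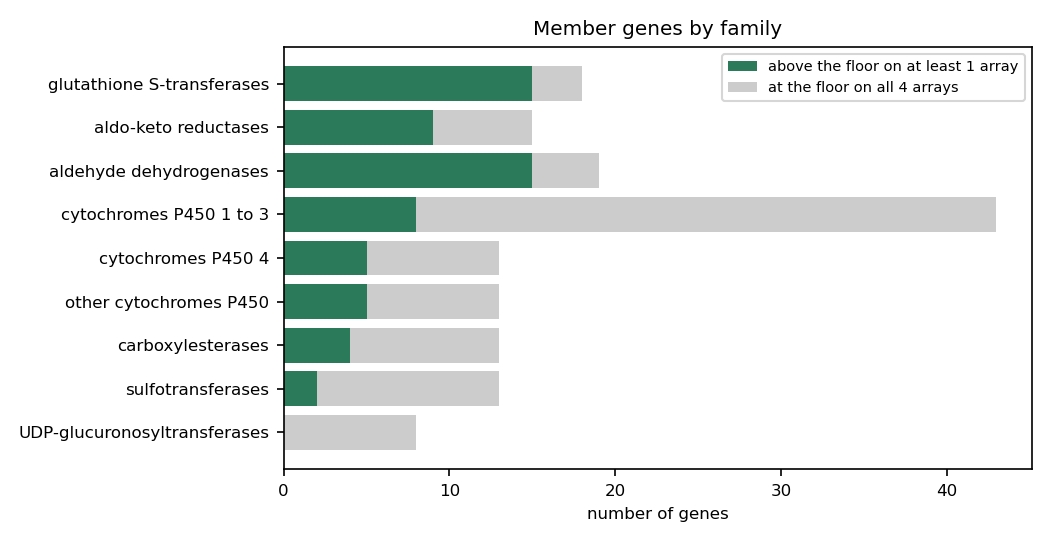
Bars count the member genes of each family (horizontal axis, number of genes), split into those above the floor of 32.4 signal units on at least 1 array and those at the floor on all 4. Of the glutathione S-transferases 15 of 18 were above it, and of the Ugt2 genes 0 of 8.

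On day 1 the array had 41 members above the floor, and the later arrays had 56, 51 and 52. On day 4, after the 3 days of culture with vitamin D3 and serum, 21 members (13.5%) were at least 2-fold higher than on day 1. Another 4 (2.58%) were lower. Over all named genes 6.61% were higher and 5.69% lower. For 12 of the 21 the fold was a bound, since they were at the floor on day 1. Among the 37 members above the floor on both arrays, the median log2 difference was 0.22, against 0.05 for 10612 genes in all. The members that were higher were 6 glutathione S-transferases, 5 aldo-keto reductases, 5 cytochromes P450, 4 aldehyde dehydrogenases and 1 sulfotransferase, and those that were lower were Aldh1a1, Cyp4b1, Cyp4f18 and Ces5a.

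Few members differed by 2-fold at the 2 later steps. On day 5 against day 4, 3 were higher (1.94%; 1.31% of all named genes) and 2 were lower (1.29%; 2.62% of all). On day 7 against day 5, 2 were higher (1.29%; 0.544% of all) and 4 were lower (2.58%; 3.73% of all). Scaling bears on this last step. For the deposited signals the genes as a whole had a median log2 difference of -0.11, which became 0.03 with quantile normalization and 0.06 with median scaling. Relative to it the members' median was 0.05, 0.03 and 0.05. Of all genes past 2-fold at this step 12.7%, 31.7% and 27.2% were higher under the 3 scalings, and of the members 33.3%, 42.9% and 42.9%. Over the whole culture, day 7 against day 1, 22 members were higher (14.2%; 8.33% of all) and 4 were lower (2.58%; 10.7% of all). For this comparison the median of all genes moved from 0.03 to 0.15 and 0.16 under the same scalings, and the members' median relative to it was 0.51, 0.27 and 0.37. Of all genes past 2-fold, the higher ones made up 43.9%, 56.3% and 53.1% in the same order. Of the members past 2-fold it was 84.6%, 86.2% and 85.7%. The comparisons share arrays, so they are not independent of each other.

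**Figure D2:**
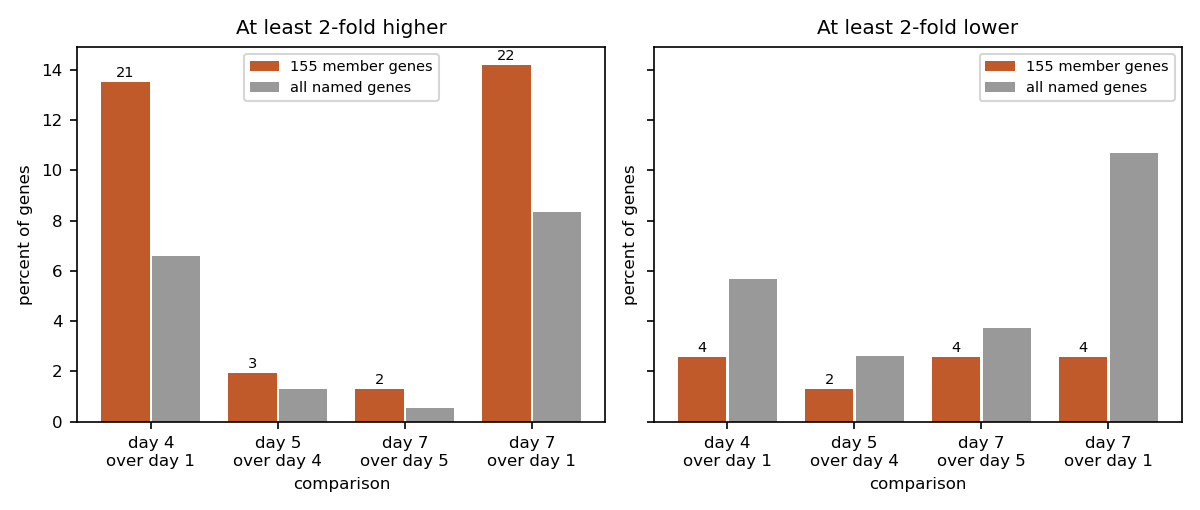
Bars give the percent of genes at least 2-fold higher (left) or lower (right) in each of 4 comparisons, for the 155 member genes and for all 18193 named genes, with the number of members above each bar. On day 4 over day 1, 21 members were higher and 4 lower.

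Marker genes of several cell types differed between the same arrays. The sums given here add the same genes on each array and are weighted towards those with the strongest signals. For scale, 6.61% of all named genes were higher and 5.69% lower on day 4. Of 15 stromal and osteoblast genes on the array, 14 were at least 2-fold higher on day 4 than on day 1, and their summed signal was 2207, 29407, 38679 and 26283 on days 1, 4, 5 and 7. Between days 5 and 7, 7 of the 15 were lower and none was higher. Of 10 osteoclast genes 7 were higher on day 4, with sums of 9542, 28747, 47098 and 55556, and of 10 macrophage genes 4 were higher, with sums of 40603, 68595, 65163 and 67046. Neutrophil genes summed to 121222, 74329.9, 41205 and 6272, and on day 4 6 of 11 were lower. Erythroid genes summed to 18096, 185, 173 and 121, with 5 of 7 lower on day 4. Adipocyte genes had 2 of 6 higher on day 4, with Lep at the floor throughout. Of 8 endothelial and 7 megakaryocyte genes none differed by 2-fold on day 4, and 3 and 6 were lower on day 7 than on day 1. On day 4, 5 of 7 eosinophil, basophil and mast cell genes, 6 of 8 B cell genes and 2 of 5 T and NK cell genes were lower. The part of these cell types in the members' values was not tested, and in such bulk samples fewer cells of a type and less RNA per cell cannot be told apart.

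Among the glutathione S-transferases, which join glutathione to reactive compounds, the alpha class stood at the floor on day 1 and above it on every later day. The signal of Gsta2 was 19.0, 633, 1065 and 1284 on days 1, 4, 5 and 7, so it was at least 19.5-fold higher on day 4 and at least 39.6-fold higher on day 7 than on day 1. That of Gsta3 was 14.8, 247, 340.5 and 217, at least 7.63-fold higher on day 4. A second Gsta3 probe set, with signals of 6.35, 61.8, 65.8 and 48.5, was also above the floor on the 3 later days only. Gsta4, known for clearing lipid peroxidation aldehydes, had signals of 25.1, 146, 175 and 65.4. It was at least 4.49-fold higher on day 4 and 2.67-fold lower on day 7 than on day 5, while Gsta2 had a log2 difference of 0.27 over that last step.

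In the mu class, Gstm2 and Gstm5 were higher on day 4 and no other gene passed 2-fold. The signal of Gstm2 was 34.1, 441, 611 and 387, 12.9-fold higher on day 4 than on day 1. Its day 1 signal was barely above the floor, so the size of that fold is uncertain. The signal of Gstm5 was 237, 607, 819 and 594, which is 2.57-fold. Gstm1 had signals of 2279, 3277, 1886 and 1651 with its highest value on day 4, but its log2 differences stayed between -0.80 and 0.52. Its probe set is of a kind that can also match related genes. Its 3 other probe sets were likewise highest on day 4, with log2 differences over day 1 of 0.83, 0.69 and 0.54. Gstm3, Gstm4 and Gstm7 had log2 differences on day 4 of -0.26, 0.82 and at least 0.21, and Gstm6 was at the floor. The Gstm3 probe set used can also match related genes. Its other probe set was at the floor on all arrays, with a highest signal of 5.7.

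The theta class was led by Gstt1, with signals of 30.0, 219.6, 366 and 313, at least 6.77-fold higher on day 4. Gstt2 was at 201, 235, 254 and 462, and passed 2-fold only over the whole culture, at 2.30-fold. Gstt3 had 58.1, 114, 143 and 111, just under 2-fold on day 4, and Gstt4 was above the floor only on day 7, at 36.6. The pi class enzyme gene Gstp1 (5883, 6306, 6589 and 4498) and the omega class gene Gsto1 (2021, 2335, 2877 and 2944), whose product reduces dehydroascorbate and mixed disulfides, were far above the floor on every array. Both stayed within 2-fold in all 4 comparisons. In all, 7 of 18 genes of the family were higher on day 7 than on day 1 and none was lower. Among all named genes 8.33% were higher and 10.7% lower. Under quantile normalization the family's count of higher genes was 9 and under median scaling 8, with none lower under either. The count of all named genes that were higher rose as well, from 1516 to 2009 and 1892.

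Aldo-keto reductases reduce aldehydes and ketones, those of sugars and steroids included. Of the 15 genes, 5 were higher on day 4 and 6 on day 7 than on day 1, and none was lower. Among all named genes 6.61% were higher and 5.69% lower on day 4, and 8.33% and 10.7% on day 7. Akr1b8, an aldose reductase relative, had signals of 432, 3212, 6445 and 7079.9. It was 7.44-fold higher on day 4, 2.01-fold higher again on day 5, and 16.4-fold higher on day 7 than on day 1. Its step from day 4 to day 5 had a log2 difference of 1.00, which was 0.87 after quantile normalization and 0.99 after median scaling. For its neighbour Akr1b10 the probe sets disagree. The one used, at 400.1, 845, 908 and 1211, was 3.03-fold higher on day 7, whereas its 2 others, at 152, 173, 124 and 76.0 and at 118, 102, 50.8 and 39.5, were lower on day 7, the second of them with a log2 difference of -1.58.

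The Akr1c genes, which encode hydroxysteroid dehydrogenases, split into those measured and those at the floor. Akr1c18, whose product inactivates progesterone, had signals of 16.7, 594, 996 and 591, at least 18.3-fold higher on day 4 and highest on day 5. Akr1c13 was at 262, 818, 1086 and 1208, which is 3.12-fold higher on day 4. Akr1c12 was at 31.5, 96.7, 123 and 305, at least 2.98-fold higher on day 4 and 2.49-fold higher on day 7 than on day 5. Akr1e1, at 205, 398, 533 and 639, passed 2-fold only over the whole culture, at 3.12-fold. This rests on 1 probe set, since the other Akr1e1 probe set was at the floor on all arrays. Akr1a1, the general aldehyde reductase, was at 15573, 17090.5, 17184 and 17073 with a log2 difference of 0.13 on day 7 over day 1. Its 3 other probe sets gave 0.39, 0.44 and 0.41. Akr7a5, known for reducing an aldehyde of aflatoxin, was at 583, 761, 847 and 856.

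Several of these genes lie side by side. In the RefSeq gene order of GRCm38.p6, 9 genes on chromosome 13 follow each other with no other protein-coding gene between them, from Akr1c14 to Akr1e1. Of these 4 were above the floor, 3 were higher on day 4 and all 4 were higher on day 7 than on day 1, while the 5 others (Akr1c14, Akr1c19, Akr1c6, Akr1c20 and Akr1c21) were at the floor. In the Gstm run of 7 genes on chromosome 3, 6 were above the floor and 2 were higher on day 4, Gstm5 at one end and Gstm2 inside the run. Gstm3 counts among the 6 only through a probe set that can also match related genes. In the run of 4 Gstt genes on chromosome 10 all were above the floor and only Gstt1 was higher on day 4. Neighbouring genes of one family can share probe-matching sequence, so their values need not be independent.

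**Figure D3:**
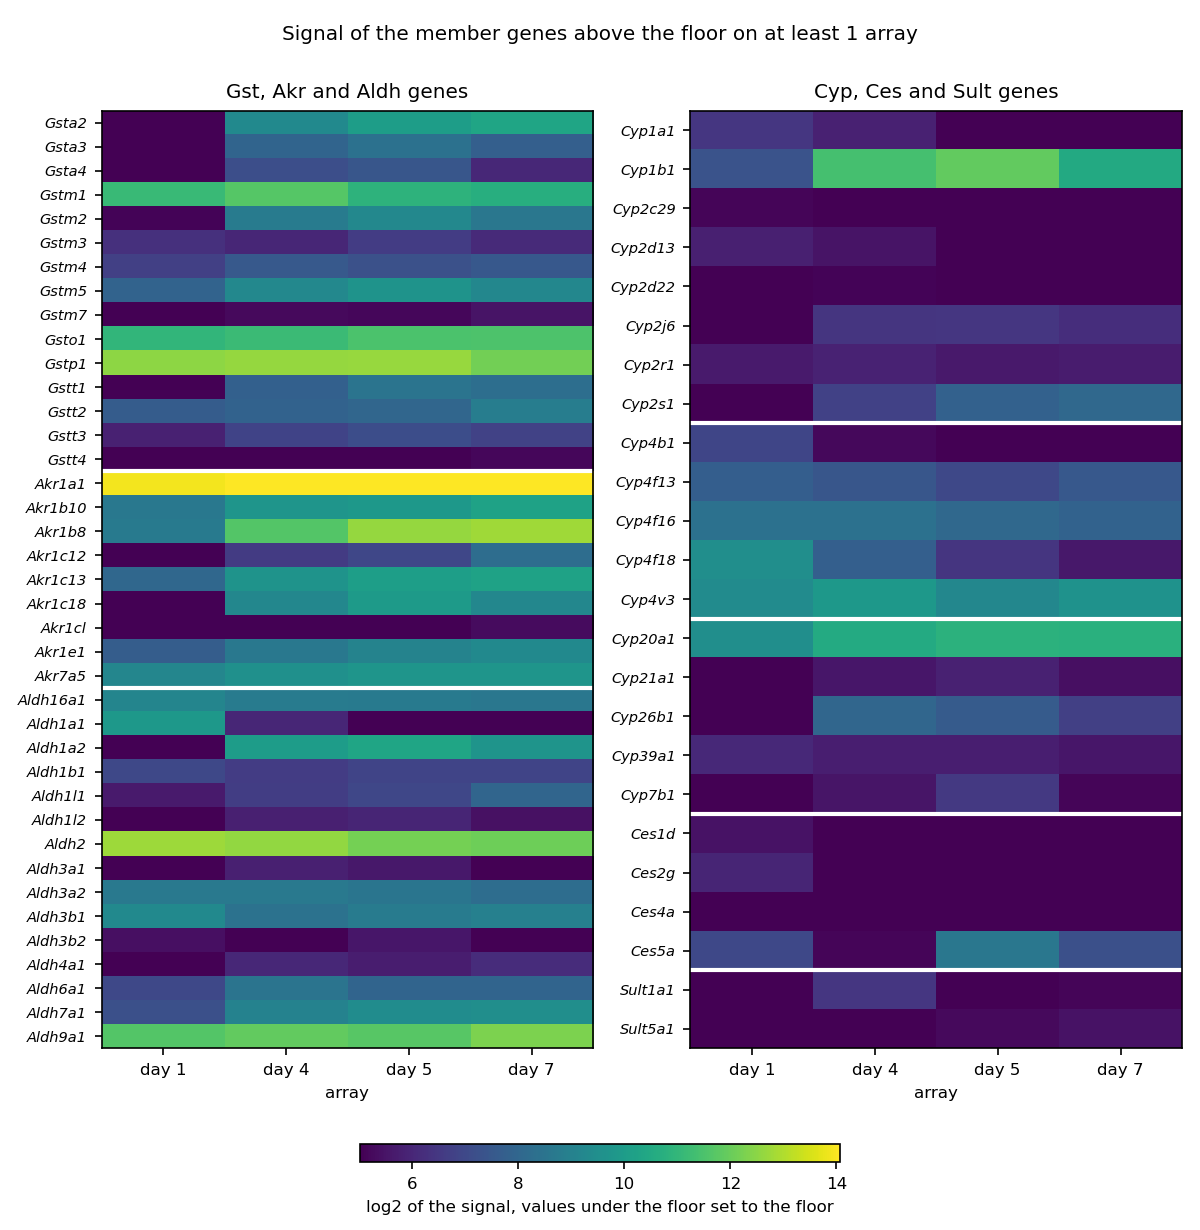
Colour gives the log2 signal (values under the floor set to the floor) of the 63 members above the floor on at least 1 array, a row a gene and a column an array, with white lines between families. Gsta2, Gsta3 and Gsta4 are at the floor on day 1 and above it on days 4, 5 and 7, and Aldh1a1 and Cyp4f18 are at their highest on day 1.

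Aldehyde dehydrogenases oxidise aldehydes to acids. A pair of them that make retinoic acid, the hormone form of vitamin A, went in opposite directions. The signal of Aldh1a1 was 921, 63.1, 22.1 and 1.10. It was 14.6-fold lower on day 4 than on day 1, and by day 7 the difference was at least 28.4-fold. The signal of Aldh1a2 was 23.2, 1046, 1285 and 834, at least 32.3-fold higher on day 4 and at least 25.7-fold higher on day 7. Aldh1a3 and Aldh1a7 were at the floor. Cyp26b1, the P450 that breaks down retinoic acid, had signals of 25.3, 258, 195 and 106. It was at least 7.94-fold higher on day 4 and at least 3.27-fold higher on day 7 than on day 1, and Cyp26a1 was at the floor. Of 10 other genes of retinoid handling on the array none was higher on day 4 and 1 was lower, the receptor gene Rara, with signals of 74.7, 35.2, 40.1 and 22.6. For all named genes the shares on day 4 were 6.61% higher and 5.69% lower.

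The other 3 aldehyde dehydrogenases that were higher on day 4 are enzymes of amino acid breakdown. Aldh7a1, of lysine breakdown, was at 149, 521, 685 and 722, 3.49-fold higher on day 4 and 4.84-fold on day 7. This rests on 1 probe set, since its 2 others were at the floor on all arrays, and with the mean over probe sets the log2 difference on day 4 was 0.60. Aldh6a1, of valine breakdown, was at 127, 364, 247 and 245, 2.87-fold higher on day 4 and within 2-fold of day 1 on day 7. Aldh4a1, of proline breakdown, was at 22.5, 65.1, 53.9 and 71.2. Its log2 difference of 1.01 on day 4 is a bound close to the threshold, and was 0.92 after quantile normalization and 0.96 after median scaling. Aldh1l1, a folate enzyme that releases formyl groups as carbon dioxide, was at 50.5, 100.1, 122 and 253, and was 2.08-fold higher on day 7 than on day 5. This too rests on 1 probe set, since the other Aldh1l1 probe set was at the floor on all arrays. With 16 added in place of a floor, the log2 difference of day 7 over day 5 was 0.97. The mitochondrial relative of Aldh1l1, Aldh1l2, was at 17.4, 56.3, 62.3 and 43.0. Being at the floor on day 1, it has only a bound there, at least 1.74-fold higher on day 4, which does not reach the threshold.

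No other member of this family passed 2-fold, and for Aldh3a1 and Aldh3b2, near the floor with highest signals of 55.7 and 47.1, some folds are bounds only. Aldh2, the mitochondrial enzyme that clears acetaldehyde, was at 6794, 6234, 4602 and 4269. Aldh9a1, which acts in carnitine synthesis, was at 3220.1, 3795, 3356 and 4962, and Aldh3a2, of fatty aldehydes, at 405, 411, 372 and 304. Aldh3b1 was at 636, 349, 445 and 499.6, with a log2 difference of -0.87 on day 4. Over the family, 4 of 19 genes were higher on day 4 and 1 was lower, and the same counts held for day 7 against day 1. Among all named genes 6.61% were higher and 5.69% lower on day 4, and 8.33% and 10.7% on day 7. Under quantile normalization and median scaling 5 genes of the family were higher and 1 lower on day 7.

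The cytochromes P450 are haem enzymes that insert oxygen into their substrates. The Cyp1 genes are the best known targets of AHR, the receptor for dioxin and for many aromatic compounds of food and smoke, and they did not move together here. Cyp1b1, which acts on aromatic hydrocarbons and oestrogens, had signals of 161, 2734, 3820.0 and 1466. It was 17.0-fold higher on day 4 than on day 1 and 2.60-fold lower on day 7 than on day 5. A second probe set gave 31.1, 724, 1109 and 304, and another stayed at the floor. Cyp1a1 was at 86.9, 57.3, 21.6 and 15.6, with its highest signal on day 1. By day 7 it was lower by a factor of at least 2.68, and Cyp1a2 was at the floor. Of 5 AHR pathway genes above the floor none differed by 2-fold on day 4 from day 1. For all named genes the shares were 6.61% higher and 5.69% lower. The receptor gene Ahr itself (367, 532, 472 and 161) and the repressor gene Ahrr (324, 292, 206 and 69.9) were 2.94-fold and 2.95-fold lower on day 7 than on day 5, respectively.

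The sequence before the start of 5 members is shown because these genes stood out in the families above: Cyp1b1 and Cyp1a1 as AHR targets with different courses, Gsta2 and Gsta3 as a pair that was higher together, and Aldh1a2 for the size of its difference. The sequences are 250 bases upstream of the RefSeq start in GRCm38.p6, written 5′ to 3′ on the gene's strand. Capitals mark the letters GCGTG, the core of the element that AHR binds, and TGACNNNGC, the core of the antioxidant element that NRF2 binds, searched on both strands. The windows are chr17:79715062-79715311 on the minus strand for Cyp1b1, chr9:57697363-57697612 on the plus strand for Cyp1a1 and chr9:78347146-78347395 on the minus strand for Gsta2. Those of Gsta3 and Aldh1a2 are chr1:21240335-21240584 and chr9:71215539-71215788, both on the plus strand.
Cyp1b1: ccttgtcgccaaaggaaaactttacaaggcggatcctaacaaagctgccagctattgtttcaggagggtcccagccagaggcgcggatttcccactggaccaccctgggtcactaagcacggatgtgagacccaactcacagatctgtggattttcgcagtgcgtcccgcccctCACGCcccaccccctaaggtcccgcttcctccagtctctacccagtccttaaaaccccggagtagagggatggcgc
Cyp1a1: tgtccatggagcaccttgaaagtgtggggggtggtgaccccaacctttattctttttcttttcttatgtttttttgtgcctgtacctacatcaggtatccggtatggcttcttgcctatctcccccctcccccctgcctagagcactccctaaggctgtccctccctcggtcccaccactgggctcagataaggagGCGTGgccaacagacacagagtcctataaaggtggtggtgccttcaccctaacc
Gsta2: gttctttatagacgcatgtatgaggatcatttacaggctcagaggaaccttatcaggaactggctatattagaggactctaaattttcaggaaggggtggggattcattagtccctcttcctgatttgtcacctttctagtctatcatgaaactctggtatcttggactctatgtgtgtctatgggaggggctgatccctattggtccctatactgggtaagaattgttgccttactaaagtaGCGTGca
Gsta3: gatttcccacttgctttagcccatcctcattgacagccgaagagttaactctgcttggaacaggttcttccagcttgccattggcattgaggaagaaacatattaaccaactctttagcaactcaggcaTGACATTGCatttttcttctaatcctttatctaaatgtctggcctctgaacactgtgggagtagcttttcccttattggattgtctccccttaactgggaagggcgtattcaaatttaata
Aldh1a2: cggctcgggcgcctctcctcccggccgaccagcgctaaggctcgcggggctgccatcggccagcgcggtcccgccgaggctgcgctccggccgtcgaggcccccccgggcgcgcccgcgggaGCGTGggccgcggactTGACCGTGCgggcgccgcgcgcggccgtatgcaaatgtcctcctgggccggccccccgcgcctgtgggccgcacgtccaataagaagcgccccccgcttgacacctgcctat

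The AHR core lay 76 to 72 bases before the start of Cyp1b1 (on the opposite strand), 54 to 50 bases before that of Cyp1a1, 7 to 3 before that of Gsta2 and 128 to 124 before that of Aldh1a2. The NRF2 core lay 121 to 113 bases before the start of Gsta3 and 112 to 104 before that of Aldh1a2. Such short cores are common. GCGTG was in 28.2% of all 32851 windows and TGACNNNGC in 10.2%. Promoter windows were found for 121 of the 155 members. Of the 20 windows of members higher on day 4, which cover 19 genes, 7 held the first and 3 the second. A match describes the letters only.

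Of the Cyp2 genes, Cyp2s1 and Cyp2j6 were higher on day 4. Cyp2s1, a P450 of epithelia, had signals of 9.42, 109, 226 and 268, at least 3.36-fold higher on day 4, 2.07-fold higher again on day 5 and at least 8.28-fold higher on day 7 than on day 1. Cyp2j6, whose subfamily oxidises arachidonic acid, was at 4.85, 85.4, 87.4 and 73.1, at least 2.63-fold higher on day 4. A second probe set of Cyp2j6 was near the floor throughout, with a highest signal of 36.8. Cyp2r1, which carries out the first activating step of vitamin D3, was at 50.4, 59.5, 49.6 and 52.4 and did not pass 2-fold in any comparison. Cyp2c29, Cyp2d13 and Cyp2d22 were above the floor on 1 or 2 arrays, with highest signals of 35.7, 55.7 and 34.2.

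The Cyp4 genes, of fatty acid and eicosanoid hydroxylation, included no gene that was 2-fold higher in any of the 4 comparisons. Cyp4f18, which inactivates the neutrophil attractant leukotriene B4, had signals of 711, 216, 85.0 and 48.7. It was 3.30-fold lower on day 4, 2.54-fold lower again on day 5 and 14.6-fold lower on day 7 than on day 1. The 11 neutrophil genes were all lower on day 7 than on day 1, and the part of neutrophils in this value was not tested. Its other probe set was at the floor on all arrays, and with the mean over both the log2 difference was -0.86 on day 4. Cyp4b1 was at 119.9, 37.3, 15.9 and 1.85, 3.21-fold lower on day 4, when it was close to the floor, and at the floor from day 5 on. Cyp4f13 (210.1, 172, 125 and 182), Cyp4f16 (339, 336, 268 and 230.2) and Cyp4v3 (669, 917, 593 and 785) stayed within 2-fold. Their log2 differences lay between -0.63 and 0.54.

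Of the other P450 genes, Cyp20a1, an enzyme without a known substrate, was at 726, 1483, 1829.6 and 1754, 2.04-fold higher on day 4 and 2.41-fold on day 7. A second Cyp20a1 probe set gave log2 differences over day 1 of 0.97 on day 4 and 1.02 on day 7. Another was near the floor, with a highest signal of 36.8. Cyp7b1, an oxysterol hydroxylase of bile acid synthesis, had signals of 14.3, 46.4, 92.4 and 35.1. It was highest on day 5 and 2.63-fold lower on day 7, when it was close to the floor. A second probe set went from 71.6 on day 5 to under the floor on day 7, at 26.3. Cyp39a1, also of oxysterols, was at 66.3, 54.3, 55.4 and 47.0. Among the 8 genes of this group at the floor on all arrays were those of steroid hormone synthesis, Cyp11a1, Cyp11b1, Cyp11b2 and Cyp17a1, while Cyp21a1, of the same pathway, reached 57.4 on day 5.

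**Figure D4:**
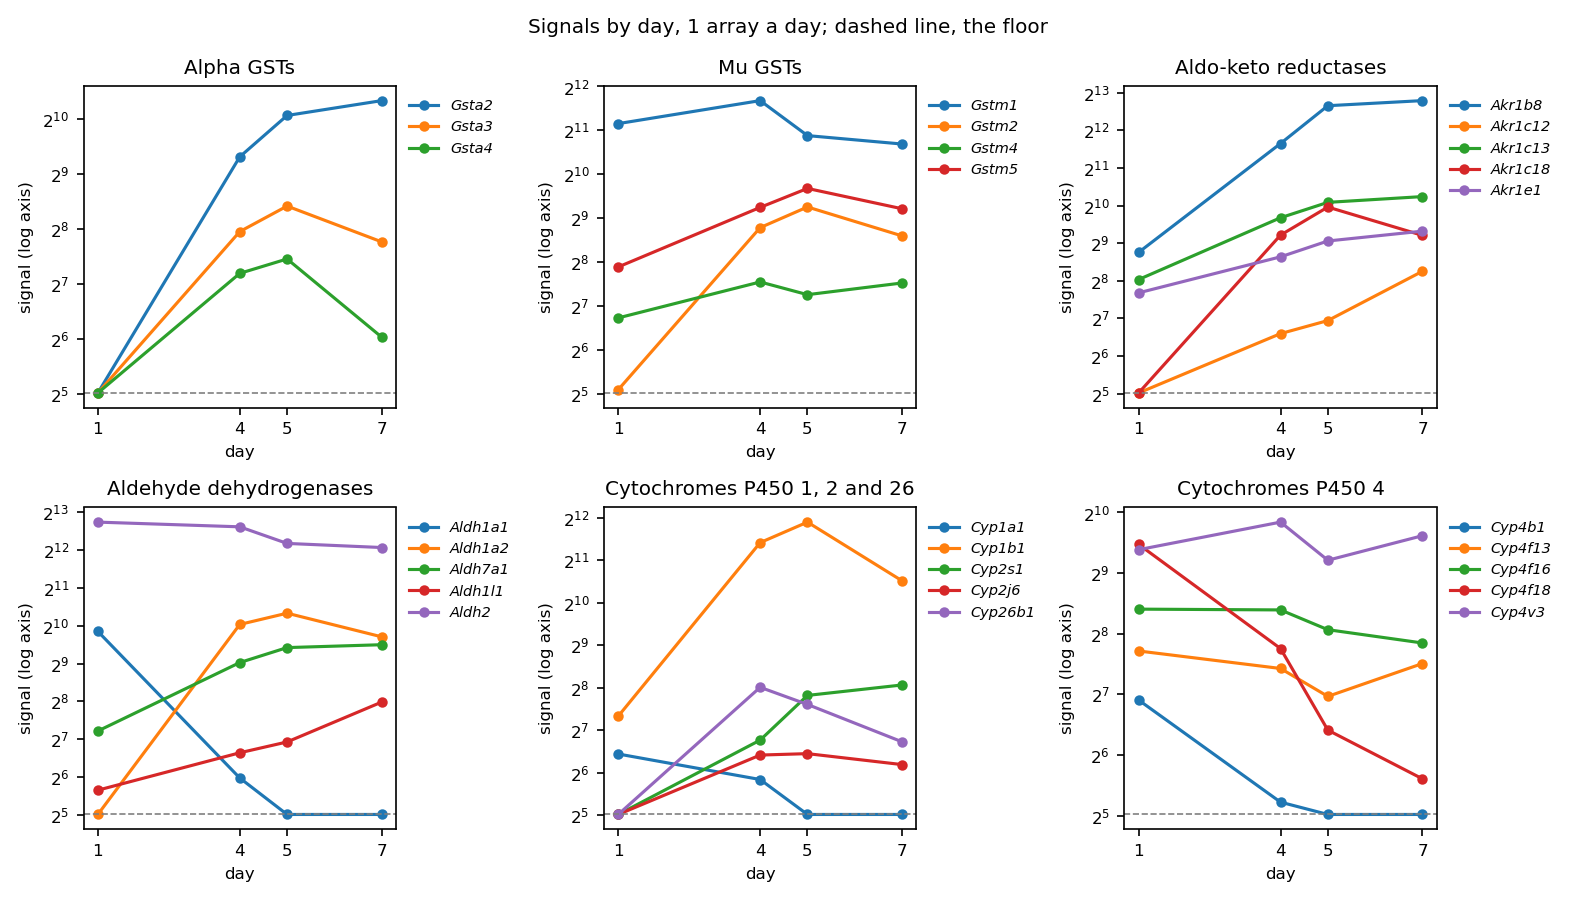
Points give the signal (vertical log axis) of selected members on days 1, 4, 5 and 7 (horizontal axis), 1 array a day, with values under the floor drawn at the dashed floor line. Cyp1b1 is highest on day 5 at 3820.0, Aldh1a1 goes from 921 to the floor while Aldh1a2 goes from the floor to 1285, and Cyp4f18 is lower at each later day.

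Carboxylesterases split ester bonds, and only Ces5a of the 13 passed 2-fold. Its signals were 127, 35.4, 388 and 150.3, that is 3.58-fold lower on day 4, 11-fold higher on day 5 than on day 4 and 2.58-fold lower on day 7 than on day 5. These values come from a probe set that can also match related sequences, and its day 4 signal was close to the floor. The 2 other Ces5a probe sets were at the floor on all 4 arrays, with highest signals of 20.9 and 10.1, so the course of Ces5a rests on that probe set alone. Ces1d and Ces2g were above the floor only on day 1, at 43.8 and 62.3, and Ces4a only on day 4, at 33.0. Of the sulfotransferases, Sult1a1, the main phenol sulfotransferase, was at 25.1, 86.7, 7.91 and 34.9. It was at least 2.67-fold higher on day 4, and on day 5 it was back at the floor, lower by at least 2.67-fold. Sult5a1 was above the floor on days 5 and 7, at 38.4 and 44.2.

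Set against each other, the early interval (day 4 over day 1) and the late one (day 7 over day 5) share no array. Of the 21 members higher on day 4, 2 were at least 2-fold lower over the late interval, Cyp1b1 and Gsta4, and 1 was higher, Akr1c12. The other 18 passed 2-fold in neither direction, with a bound only for Sult1a1. On day 7, 19 of the 21 were still at least 2-fold above day 1, and Aldh6a1 and Sult1a1 were not. Both comparisons use the day 1 array, where 12 of the 21 were at the floor, so the counts are not independent. The same share was not computed for all named genes. Members with large early differences had late log2 differences that ranged from 0.27 for Gsta2 and 0.14 for Akr1b8 to -0.62 for Aldh1a2, -0.75 for Akr1c18, -0.88 for Cyp26b1, -1.38 for Cyp1b1 and -1.42 for Gsta4. The 15 stromal genes had a median of -0.91 and the 10 osteoclast genes of 0.33 over the late interval. Whether stromal or osteoclast cells carried these members was not tested.

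**Figure D5:**
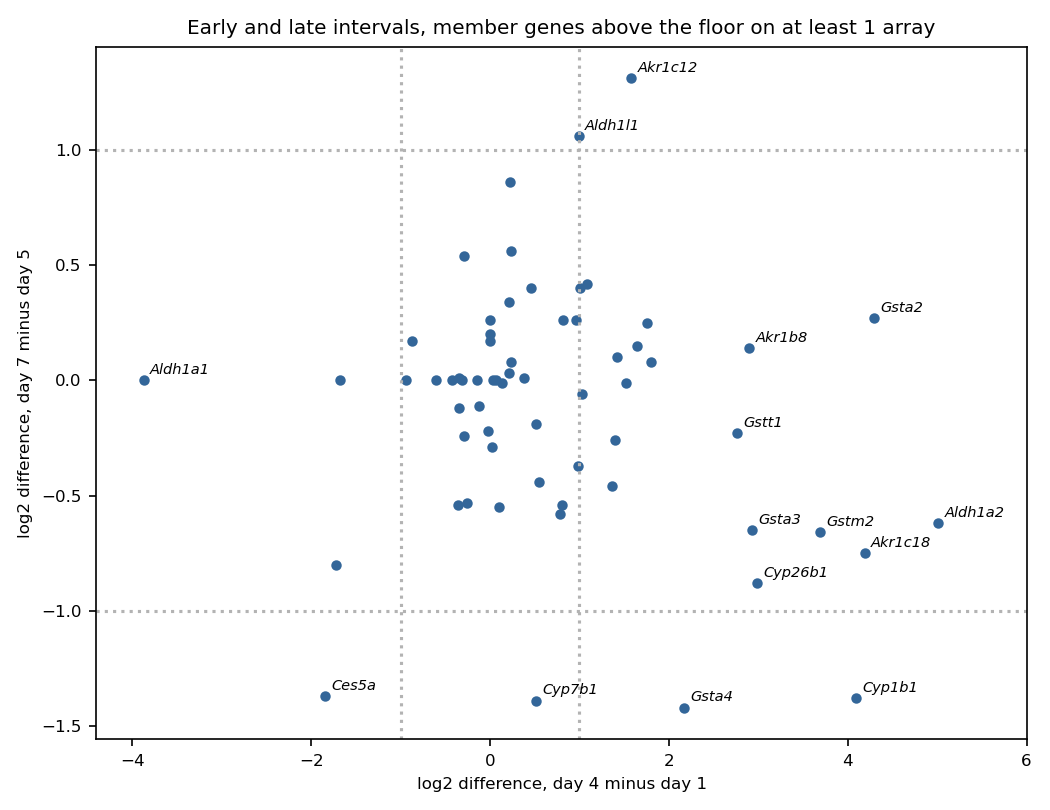
Each point is 1 of the 63 members above the floor on some array, with its log2 difference of day 4 minus day 1 on the horizontal axis and of day 7 minus day 5 on the vertical axis, and dotted lines mark 2-fold. Cyp1b1 and Gsta4 lie at lower right, at -1.38 and -1.42 on the vertical axis, and Gsta2 and Akr1b8 above 0.

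Genes that supply or complement these enzymes were read from lists. The day 4 counts of these lists stand beside 6.61% higher and 5.69% lower among all named genes. Of 6 P450 electron donors and partners on the array, Cyb5r3 and Pgrmc1 were higher on day 4 and none was lower. The mitochondrial electron donor Fdx1 was higher on day 7 than on day 1 as well, with signals of 389, 687, 1145 and 1339.9. Of 31 other enzymes of the same reactions on the array, 12 were higher on day 4 and 2 were lower. Nnmt, which methylates nicotinamide, was at 26.9, 589, 743 and 345 and thus at least 18.1-fold higher on day 4. The epoxide hydrolase gene Ephx1 was at 209, 638, 720.3 and 694, and Ephx2, which opens fatty acid epoxides, at 26.2, 67.1, 117 and 304. The lower ones were the flavin monooxygenase gene Fmo5 (285, 74.9, 30.7 and 31.3) and Mgst2, a microsomal glutathione transferase (2308, 785, 1311 and 338).

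Between days 5 and 7 this list had 4 genes higher and 4 lower, against 0.544% and 3.73% of all named genes. The higher ones were Cbr2, Ephx2, Mgst3 and Hpgds, the prostaglandin D synthase of the glutathione transferase fold. The lower ones were Mgst2, Nnmt, Aox1 and Adh7. Across days 1, 4, 5 and 7, Cbr2 was at 874, 1424, 458 and 2795. Hpgds was at 370.0, 862, 447 and 1133, and Mgst3 at 313, 563, 907 and 1944. Cbr2 and Hpgds had thus dropped 3.11-fold and 1.93-fold between days 4 and 5. Their late differences start from that low value on the single day 5 array. Between days 4 and 5 this list had 2 genes lower, Cbr2 and Fmo5, and none higher. Of 11 genes of NRF2 and glutathione supply, 3 were higher on day 4 and none was lower. They were the glutathione synthetase gene Gss (324, 953, 1135 and 799.6), Hmox1 (4341, 9199, 9202 and 5808) and Srxn1. The NRF2 gene Nfe2l2 and the classic target Nqo1 had log2 differences of 0.23 and -0.05. Gsr, the glutathione reductase gene, was at 6706, 3374, 3119 and 2397, 1.99-fold lower on day 4. Slc7a11, which imports cystine for glutathione, was at 244, 186, 232 and 68.4. On day 7 over day 1 the list had 1 gene higher (Gss) and 2 lower (Gsr and Slc7a11), with a median log2 difference of -0.34. Of 8 efflux pumps 3 were higher on day 4, Abcb1b, Abcc3 and Abcg2, and none was lower. Of 5 nuclear receptor genes none differed by 2-fold, and the drug-sensing receptors Nr1i2 and Nr1i3 were at the floor.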

How the data were processed

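Expression was measured on 4 arrays, 1 for each of days 1, 4, 5 and 7, each assigned to its day from the label titles. The authors deposited an intensity for each of 45101 probe sets on a linear scale, and GCOS 1.4 and MAS5 are named per the submitters' processing notes. The sources used here do not give the scaling target, and detection calls were not used. The 64 control probe sets were left out. Gene symbols came from the platform annotation, and all 155 member symbols were found in RefSeq of GRCm38.p6. With 1 array a group no test was possible, so differences of floored log2 signals were counted at a threshold of 2-fold. The members, lists, motifs and threshold were chosen with earlier results of these data known. Any member above the floor on at least 1 array could be named, as could genes of the pathway and cell type lists, and the few members named as at the floor were chosen after their values were seen. Those lists covered AHR, NRF2 and glutathione supply, P450 partners, other enzymes, efflux pumps, drug-sensing receptors, retinoid handling and 12 cell types. The 5 promoters printed were chosen after their values were seen. Alternatives were a lower floor (8.43, the 25th percentile), a higher one (254, the 75th percentile), adding 16 in place of a floor, quantile normalization, median scaling, averaging a gene's probe sets, and dropping probe sets that can match several transcripts. The counting was tested on simulated data, with differences larger than the threshold set in genes well above the floor. That test did not cover differences near the threshold or genes at the floor. Python 3.11.15 with numpy 2.4.6, pandas 2.3.3 and matplotlib 3.10.9 was used.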

Additional observations from a re-analysis of the deposited data

How the results depend on the processing

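No paired analysis was possible because each day had 1 array, and for the same reason no array could be left out. With the floor at the 25th percentile, 118 members were above it on some array. Then 7 were lower on day 4 over day 1, 11 higher and 9 lower on day 5 over day 4, 6 higher and 10 lower on day 7 over day 5, and 10 lower on day 7 over day 1. With the floor at the 75th percentile, 34 members were above it. Then 10 were higher and 2 lower on day 4 over day 1, 1 higher and 0 lower on day 5 over day 4, 0 higher and 1 lower on day 7 over day 5, and 11 higher and 2 lower on day 7 over day 1. Without a floor, the lower members numbered 7 for day 7 against day 5 and 7 for day 7 against day 1. With the mean over probe sets, 2 were lower on day 4 over day 1, 1 lower on day 5 over day 4, and 1 higher and 2 lower on day 7 over day 5. The other counts were within 1.5 times the reported ones. Shares of all named genes were not computed for the other floors, without a floor or with the mean over probe sets. The counts under those settings therefore do not show whether members differed from the genes as a whole. Of 434 values of single genes under these alternatives, 374 kept direction and 2-fold size, 59 kept the direction but fell short of 2-fold or were at 0, and 1 reversed. Of these 59 weaker values, 35 came with the highest floor. A lower floor cannot shrink a difference already past 2-fold, so all 62 values under it had to be kept. Dropping probe sets that match several transcripts leaves genes read from other probe sets unchanged, so the 59 values kept there were fixed as well. The kept values of these 2 settings therefore say nothing about robustness. Averaging probe sets leaves genes with 1 probe set unchanged, so many of the 47 values kept there were fixed too. Under that setting 14 values were weaker and 1 reversed. The total of 374 kept values therefore overstates robustness. The one that reversed was Akr1b10 on day 7 over day 1, at -0.33 with the mean over probe sets. Without probe sets that match several transcripts, Ces5a was at the floor on all arrays. Signals near the floor limit what can be said of most P450, carboxylesterase and sulfotransferase genes.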

Other observations

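For Aldh2 the probe sets did not follow one course. The probe set used was at 6794, 6234, 4602 and 4269 on days 1, 4, 5 and 7, and another was at 797, 370.2, 119 and 109.6, with a log2 difference of -2.86 on day 7 over day 1. The 3 others had differences of -0.61, -0.31 and -0.18 over the same days. This single divergent probe set was chosen for mention after its values were seen, and which transcript it detects was not tested.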
